A study of Mus musculus with 16 samples.

Results

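The genes described here are 10 genes of the acute-phase response and of signaling through the transcription factor STAT3: Serpina3n, Lcn2, Mt1, Mt2, Socs3, Osmr, Il6st, Stat3, Ch25h and Cebpd. They were chosen by name, with results of these data known, and are 10 of the 37003 genes in the table of raw counts. All 10 passed the filter on low counts, which left 31085 genes. RNA came from brain endothelial cells (bECs) of adult mice, sorted 72 hours after surgery for CD31, with CD45-positive and dead cells gated out. Surgery was either a sham operation or MCAo, a closure of the middle cerebral artery for 30 min followed by reperfusion. Every mouse carried floxed Yap and Taz (Wwtr1) alleles on both chromosomes and received tamoxifen before surgery. YT-iKO mice also carried Pdgfb-iCreER-eGFP, a tamoxifen-inducible Cre recombinase under the Pdgfb promoter, which is active in endothelium, whereas CTRL littermates lacked this transgene. The 2 genotypes and 2 operations gave 4 groups of 4 libraries, and each library was a pool of 2 to 4 mice. Nothing in the labels ties a replicate of a group to a day or litter.

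Cytokines of the interleukin-6 family bind receptors that share the signal transducer gp130, encoded by Il6st, which for oncostatin M pairs with the receptor encoded by Osmr. Bound receptors activate JAK kinases, which phosphorylate STAT3, and STAT3 then enters the nucleus and switches on target genes. Among these targets is Socs3, whose product binds gp130 and shuts the pathway off again. Acute-phase genes are those whose products rise after injury or infection, and in the injured brain Serpina3n and Lcn2 are well known from reactive astrocytes. The 10 genes are taken below in the order receptors, transducer, inhibitor, transcription factor, secreted acute-phase products, oxysterol enzyme and metallothioneins.

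Promoter windows, the 250 bases before the annotated start of each gene, were taken from RefSeq on build GRCm38.p6 for 9 of the 10 genes. Cebpd had no entry. They were searched on both strands for TTCNNNGAA, the letters of a STAT site, for TTGCNNAA, the letters of a C/EBP site, for TGCACNC or TGCGCNC, the core of the metal response element, and for the NF-kB motif. Starts are those of RefSeq, whereas the gene positions given further below are from GENCODE, and the 2 annotations differ for some genes. The windows of Socs3, Lcn2 and Osmr lie inside the GENCODE gene positions, and those of Mt1 and Ch25h overlap them in part. The windows shown are those of the genes with the largest changes after MCAo and of both metallothionein genes. The first holds the only STAT letters among the 9 windows, in capitals, at 154 to 146 bases before the start (Socs3, chr11:117969367-117969616, minus strand).
Socs3: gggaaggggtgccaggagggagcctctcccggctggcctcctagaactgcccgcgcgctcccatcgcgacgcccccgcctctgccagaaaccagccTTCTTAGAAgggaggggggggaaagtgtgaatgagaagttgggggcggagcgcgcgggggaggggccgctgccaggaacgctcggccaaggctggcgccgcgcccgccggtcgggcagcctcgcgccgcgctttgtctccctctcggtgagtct
STAT letters were present in 7.02% of 32851 mouse promoter windows of the same length. The window of Serpina3n (chr12:104406458-104406707, plus strand) held none of the 4 motifs, so that nothing in it is in capitals.
Serpina3n: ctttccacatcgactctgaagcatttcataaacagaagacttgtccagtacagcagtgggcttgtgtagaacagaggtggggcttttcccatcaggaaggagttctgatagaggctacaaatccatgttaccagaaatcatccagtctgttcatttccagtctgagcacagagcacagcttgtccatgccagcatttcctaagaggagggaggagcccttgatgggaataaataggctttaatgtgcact
Capitals mark C/EBP letters in Lcn2 (chr2:32387740-32387989, minus strand), 216 to 209 bases before the start, and in Ch25h (chr19:34475149-34475398, minus strand), 112 to 105 bases before it.
Lcn2: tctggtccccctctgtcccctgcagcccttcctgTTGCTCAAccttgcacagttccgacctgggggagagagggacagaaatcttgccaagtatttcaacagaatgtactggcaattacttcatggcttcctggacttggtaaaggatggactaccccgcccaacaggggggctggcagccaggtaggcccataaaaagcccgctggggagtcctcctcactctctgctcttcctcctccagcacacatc
Ch25h: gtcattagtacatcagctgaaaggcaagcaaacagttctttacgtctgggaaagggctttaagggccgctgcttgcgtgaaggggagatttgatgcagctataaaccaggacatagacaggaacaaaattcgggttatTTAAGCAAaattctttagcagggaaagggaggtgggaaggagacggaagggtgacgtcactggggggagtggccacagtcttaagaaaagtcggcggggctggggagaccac
Letters of the metal response element, in capitals, occurred once in Mt1 (chr8:94178839-94179088, plus strand) and at 3 places in Mt2 (chr8:94172368-94172617, plus strand), the last of them on the opposite strand.
Mt1: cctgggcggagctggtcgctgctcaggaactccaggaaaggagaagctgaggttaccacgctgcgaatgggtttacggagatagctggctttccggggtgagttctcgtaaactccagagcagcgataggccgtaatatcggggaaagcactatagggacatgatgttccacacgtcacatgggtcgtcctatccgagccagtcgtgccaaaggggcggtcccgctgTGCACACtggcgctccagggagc
Mt2: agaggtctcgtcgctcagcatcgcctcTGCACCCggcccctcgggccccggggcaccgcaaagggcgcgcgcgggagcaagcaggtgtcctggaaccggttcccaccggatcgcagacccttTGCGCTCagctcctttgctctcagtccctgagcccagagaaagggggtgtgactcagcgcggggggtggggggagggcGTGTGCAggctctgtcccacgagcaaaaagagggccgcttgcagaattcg
C/EBP letters were found in 3 of the 9 windows (Lcn2, Ch25h and Mt2) against 9.56% of all windows, and letters of the metal response element in 2 of the 9 against 21.4%. The NF-kB motif was in 0 of the 9 windows and in 7.25% of all windows. These matches describe letters only and do not show binding.

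Levels are given in counts per 1000000 (CPM), with libraries scaled on the 9123 genes that had a mean of at least 10 CPM. Library totals were 11418262 to 23074547 counts. An even background of reads on genes that bECs do not express ranged from 0.663 to 6.6 counts per kilobase of exon between libraries. Scaling factors based on all genes ranged from 0.743 to 1.4, whereas factors based on the abundant genes stayed between 0.938 and 1.04. Fold changes come from edgeR with factors from all genes tested, and those with factors from the abundant genes are given beside them for some genes. Moving from the first scale to the second raised the median log2 fold change of all genes by 0.19 for genotype after sham, by 0.14 for MCAo in CTRL and by 0.04 for genotype after MCAo, and shifted it by −0.14 for the difference in response and by −0.01 for MCAo in YT-iKO. The targeted genes were lower in every YT-iKO library: Yap1 was at 101 to 115 CPM in the 8 CTRL libraries and at 42.7 to 54.9 CPM in the 8 YT-iKO libraries, and Wwtr1 at 241 to 347 and 60.4 to 102 CPM. The endothelial markers Pecam1, Cdh5 and Cldn5 were high in all groups, with group means of 915 to 1363, 1086 to 1336 and 923 to 1379 CPM.

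The plot of levels by library shows all 10 genes in the 4 groups.

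**Figure D1:**
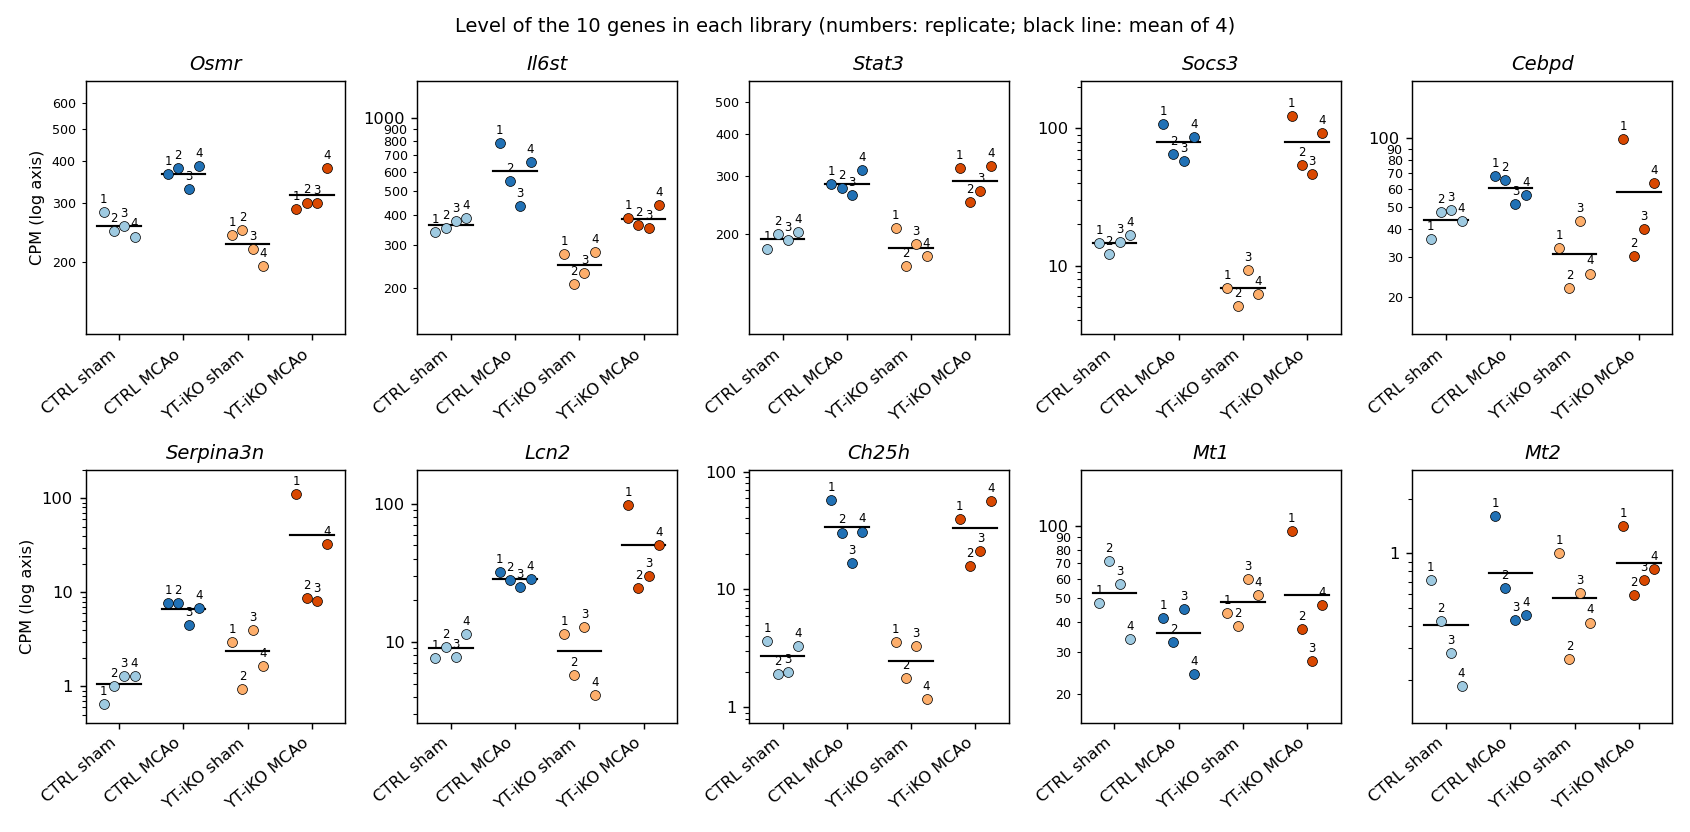
Level of each gene in each library, in CPM on a log axis; points are libraries with their replicate number, and black lines are means of 4. The MCAo libraries of Socs3, Lcn2, Serpina3n and Ch25h lie above all sham libraries of the same genotype, and YT-iKO MCAo replicates 1 and 4 stand above replicates 2 and 3 in Serpina3n (112 and 33.0 against 8.78 and 8.14 CPM).

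MCAo was first compared with sham in each genotype. Because the genes were proposed with this comparison known, their values are described without a p value, and the counts of called genes below describe the choice and support nothing. On levels scaled on the abundant genes, 8 of the 10 genes were higher in every CTRL MCAo library than in every CTRL sham library. Of all genes tested, 4.69% were. In YT-iKO bECs, 7 of the 10 were, against 1.87% of all genes. Overlaps of groups given below are on the same scale. Scaled on all genes, sham and MCAo overlapped for Osmr, Il6st and Stat3 in both genotypes and for Cebpd in CTRL. Fewer of the 10 were then apart. By edgeR's quasi-likelihood test at an adjusted p under 0.1, 2 genes (Ch25h and Socs3) were called in CTRL, where 0.216% of all genes were called, and 4 genes (Ch25h, Socs3, Lcn2 and Serpina3n) in YT-iKO, where 0.318% were. With factors from the abundant genes, these counts became 6 (1.78% of all genes) and 7 (1.72%). In CTRL the median log2 fold change was 0.84 over the 10 genes and 0.07 over all genes, and in YT-iKO it was 0.94 and −0.02. The counts did not move below 2 and 4 when a library was left out, and 4 genes were called in CTRL without YT-iKO MCAo replicate 1. A higher level in these sorted cells cannot be told apart from a larger share of cells that express the gene.

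Osmr (ENSMUSG00000022146; chromosome 15, 6813577 to 6874969, minus strand of GRCm38; exons 12.1 kb) encodes the receptor subunit for oncostatin M. Its level in CTRL sham replicates 1 to 4 was 282, 248, 256 and 238 CPM, and in CTRL MCAo 367, 382, 331 and 387 CPM. In YT-iKO it was 240, 249, 219 and 194 CPM after sham and 288, 301, 300 and 381 CPM after MCAo. Replicate 4 of YT-iKO MCAo stood above the other 3 libraries of its group, and there was no overlap between sham and MCAo in either genotype. With MCAo its log2 fold change was 0.44 (standard error, SE, 0.27) in CTRL and 0.57 (SE 0.27) in YT-iKO, and 0.52 (SE 0.10) and 0.49 (SE 0.10) with factors from the abundant genes.

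Il6st (ENSMUSG00000021756; chromosome 13, 112464070 to 112510086, plus strand; exons 11.1 kb) encodes gp130. Its level was 338, 352, 375 and 389 CPM in CTRL sham and 784, 550, 433 and 658 CPM in CTRL MCAo. In YT-iKO bECs it was 276, 207, 230 and 281 CPM after sham and 389, 361, 353 and 438 CPM after MCAo. It was higher after MCAo in both genotypes without overlap, and the CTRL MCAo libraries were the most spread out. With MCAo its log2 fold change was 0.71 (SE 0.31) in CTRL and 0.72 (SE 0.31) in YT-iKO, and 0.74 (SE 0.15) and 0.63 (SE 0.15) with factors from the abundant genes.

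Stat3 (ENSMUSG00000004040; chromosome 11, 100885098 to 100939540, minus strand; exons 9.53 kb) encodes the transcription factor itself. It stood at 181, 200, 193 and 204 CPM in CTRL sham and at 284, 275, 263 and 312 CPM in CTRL MCAo. The YT-iKO libraries had 209, 161, 187 and 173 CPM after sham and 316, 250, 270 and 320 CPM after MCAo. The highest CTRL library was 1.13-fold above the lowest after sham and 1.19-fold after MCAo, and again sham and MCAo did not overlap. Stat3 had a log2 fold change of 0.47 (SE 0.27) in CTRL and 0.76 (SE 0.27) in YT-iKO, and of 0.54 (SE 0.10) and 0.66 (SE 0.10) with factors from the abundant genes. It shares 0.8% of its exon sequence with Stat5a on the opposite strand.

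Socs3 (ENSMUSG00000053113; chromosome 11, 117966079 to 117970047, minus strand; exons 2.89 kb) encodes the feedback inhibitor of gp130 signaling. Its level in CTRL was 14.5, 12.2, 14.9 and 16.7 CPM after sham and 108, 64.7, 57.5 and 86.0 CPM after MCAo. In YT-iKO it was 6.82, 5.06, 9.30 and 6.17 CPM after sham and 123, 53.9, 46.4 and 93.2 CPM after MCAo. All 8 MCAo libraries lay far above all 8 sham libraries, and the lowest levels were those of YT-iKO sham. The log2 fold change was 2.42 (SE 0.39), or 5.36-fold, in CTRL and 3.74 (SE 0.41), or 13.3-fold, in YT-iKO.

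Cebpd (ENSMUSG00000071637; chromosome 16, 15887286 to 15891031, plus strand; exons 3.75 kb) encodes C/EBP delta, a transcription factor of the acute-phase response. It was at 35.9, 47.3, 48.4 and 43.1 CPM in CTRL sham and at 67.9, 65.6, 51.2 and 56.3 CPM in CTRL MCAo. The YT-iKO levels were 32.9, 22.0, 43.4 and 25.4 CPM after sham and 99.0, 30.3, 39.8 and 63.6 CPM after MCAo. MCAo and sham were apart in CTRL and overlapped in YT-iKO, where MCAo replicate 1 was the highest of all libraries. The log2 fold change was 0.40 (SE 0.36) in CTRL and 1.12 (SE 0.36) in YT-iKO and was called in neither. Of its exon sequence, 15% is shared with Spidr on the opposite strand.

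Serpina3n (ENSMUSG00000021091; chromosome 12, 104406729 to 104414329, plus strand; exons 2.06 kb) encodes a secreted serine protease inhibitor, an acute-phase protein of the antichymotrypsin family. CTRL sham had 0.656, 1.01, 1.28 and 1.30 CPM and CTRL MCAo 7.67, 7.71, 4.45 and 6.86 CPM. YT-iKO sham had 3.00, 0.938, 4.00 and 1.66 CPM, and YT-iKO MCAo had 112, 8.78, 8.14 and 33.0 CPM. All MCAo libraries lay above all sham libraries, and the highest was 1.73-fold above the lowest in CTRL MCAo but 13.8-fold in YT-iKO MCAo. Serpina3n had a log2 fold change of 2.60 (SE 0.73) in CTRL and 4.37 (SE 0.71) in YT-iKO, and without YT-iKO MCAo replicate 1 the latter was 2.98 (SE 0.54). The sham levels rest on few reads, 11 to 21 counts in CTRL and 18 to 69 in YT-iKO, of which the even background could account for 4.66 to 7.96 and 6.27 to 13.5.

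Lcn2 (ENSMUSG00000026822; chromosome 2, 32384633 to 32388252, minus strand; exons 2.62 kb) encodes lipocalin-2, a secreted protein that binds iron-carrying siderophores. Its level was 7.70, 9.21, 7.75 and 11.5 CPM in CTRL sham and 32.2, 27.9, 25.1 and 28.8 CPM in CTRL MCAo. In YT-iKO it was 11.5, 5.73, 12.9 and 4.16 CPM after sham and 98.1, 24.5, 29.9 and 50.0 CPM after MCAo. The MCAo groups lay above the sham groups, and as for Serpina3n the YT-iKO MCAo libraries were led by replicates 1 and 4. Its log2 fold change was 1.6 (SE 0.43), or 3.02-fold, in CTRL and 2.77 (SE 0.45), or 6.82-fold, in YT-iKO. With factors from the abundant genes the CTRL value was 1.65 (SE 0.38), and without YT-iKO MCAo replicate 1 the YT-iKO value was 2.07.

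Ch25h (ENSMUSG00000050370; chromosome 19, 34473778 to 34475164, minus strand; exons 1.39 kb) encodes cholesterol 25-hydroxylase, which makes 25-hydroxycholesterol. It rose from 3.64, 1.92, 1.99 and 3.29 CPM in CTRL sham to 57.6, 30.4, 16.6 and 31.0 CPM in CTRL MCAo. In YT-iKO it rose from 3.61, 1.77, 3.30 and 1.18 CPM to 39.7, 15.8, 21.1 and 56.8 CPM. All MCAo libraries were far above all sham libraries, and the highest was 3.47-fold above the lowest within CTRL MCAo and 3.59-fold within YT-iKO MCAo. Its log2 fold changes, 3.67 (SE 0.56) in CTRL and 3.97 (SE 0.57) in YT-iKO, were 12.7-fold and 15.7-fold. It shares 11.5% of its exon sequence with Gm26902 on the opposite strand, a gene at 20 to 139 counts per library.

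Mt1 (ENSMUSG00000031765; chromosome 8, 94179082 to 94180327, plus strand; exons 1.25 kb) encodes metallothionein 1, which binds zinc and copper. It had 47.9, 71.4, 57.5 and 33.9 CPM in CTRL sham and 41.3, 32.9, 45.2 and 24.2 CPM in CTRL MCAo. In YT-iKO it had 43.5, 38.3, 60.1 and 51.6 CPM after sham and 95.7, 37.4, 27.3 and 47.1 CPM after MCAo. The groups overlapped, and Mt1 had the only negative fold change among the 10 genes in CTRL (log2 −0.65, SE 0.36), against 0.28 (SE 0.36) in YT-iKO, neither of them called by edgeR. Without YT-iKO MCAo replicate 1 the YT-iKO value was −0.38. Limma-voom, which weights libraries by quality, gave −0.86 in YT-iKO and called Mt1 lower in both genotypes, where it called 7538 and 5626 of all genes in either direction.

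Mt2 (ENSMUSG00000031762; chromosome 8, 94172664 to 94173568, plus strand; exons 0.588 kb), the neighbor of Mt1, encodes metallothionein 2 and had only 3 to 32 counts per library. Its level was 0.186 to 0.716 CPM in CTRL sham, 0.428 to 1.61 CPM in CTRL MCAo, 0.261 to 1.00 CPM in YT-iKO sham and 0.591 to 1.41 CPM in YT-iKO MCAo. These ranges overlapped, and a change with MCAo was not detectable at this depth. Of the exon sequence of Mt2, 73.5% is shared with the antisense gene Gm45774 (2 to 16 counts per library). The counting program and its use of strand were not given in the sources used here, so that reads of the pair cannot be assigned.

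**Figure D2:**
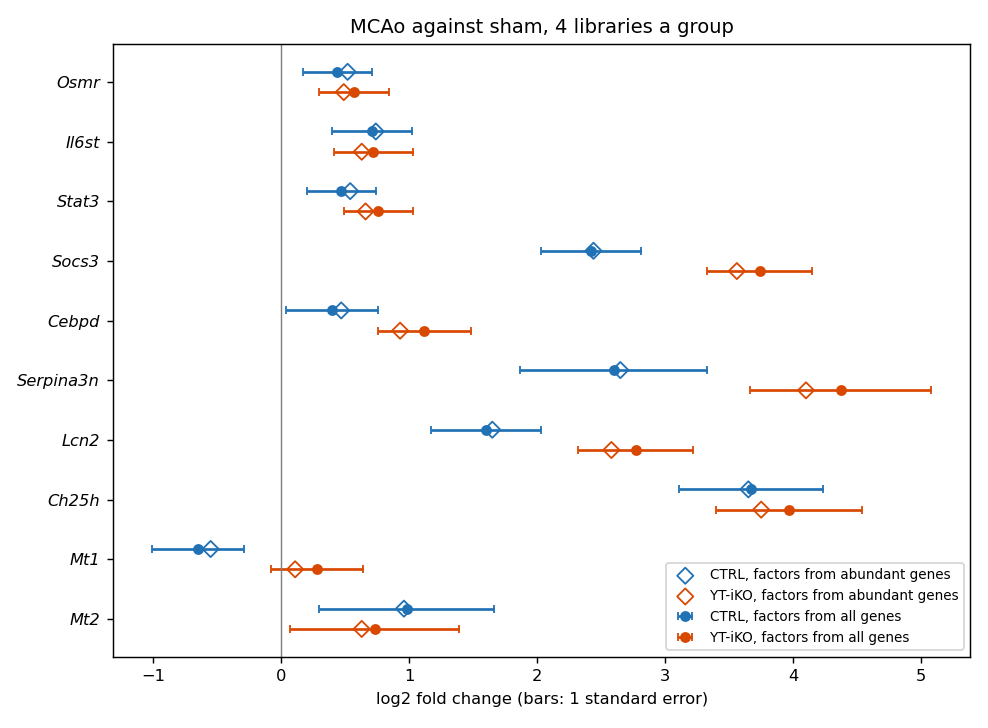
Log2 fold change of MCAo against sham for each gene, in CTRL (blue) and YT-iKO (orange); filled points with bars of 1 SE use factors from all genes tested, open diamonds factors from abundant genes. Ch25h (3.67 and 3.97), Socs3 (2.42 and 3.74), Serpina3n (2.60 and 4.37) and Lcn2 (1.6 and 2.77) lie farthest to the right, and the receptors and Stat3 between 0.44 and 0.76.

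Levels of different genes can be compared only per length of exon. The length used is that of all annotated exons of a gene merged, which for Mt1 equals the whole gene. The order of genes depends on these lengths. After sham surgery in CTRL, Mt1 had the highest level per length (42.3 ± 12.7 CPM per kilobase, SD, n = 4), followed by Il6st (32.7 ± 2.06), Osmr (21.1 ± 1.57), Stat3 (20.4 ± 1.04) and Cebpd (11.7 ± 1.52). Mt1 and Il6st, and Osmr and Stat3, did not differ beyond their spread. Below them stood Socs3 (5.04 ± 0.629), Lcn2 (3.45 ± 0.685) and Ch25h (1.95 ± 0.637), and the lowest were Mt2 (0.685 ± 0.392) and Serpina3n (0.515 ± 0.146), again not apart. In CTRL MCAo, Il6st led (54.6 ± 13.5 CPM per kilobase), and Osmr (30.3 ± 2.09), Stat3 (29.7 ± 2.19), Mt1 (28.8 ± 7.51), Socs3 (27.3 ± 7.81) and Ch25h (24.4 ± 12.4) formed a group within their spread. In YT-iKO MCAo, the highest means were those of Mt1 (41.6 ± 24.3 CPM per kilobase), Il6st (34.7 ± 3.45) and Stat3 (30.3 ± 3.64), within the spread of Mt1. Osmr was at 26.2 ± 3.52, Lcn2 at 19.3 ± 12.8 and Cebpd at 15.5 ± 8.16. Serpina3n was at 19.6 ± 23.8 in that group, a mean that rests on replicate 1 (112 CPM, against 8.14 to 33.0 CPM in the others). Lower levels after MCAo were those of Cebpd (16.1 ± 2.09), Lcn2 (10.9 ± 1.13) and Serpina3n (3.23 ± 0.743) in CTRL, and Mt2 in CTRL (1.33 ± 0.949) and YT-iKO (1.51 ± 0.617).

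**Figure D3:**
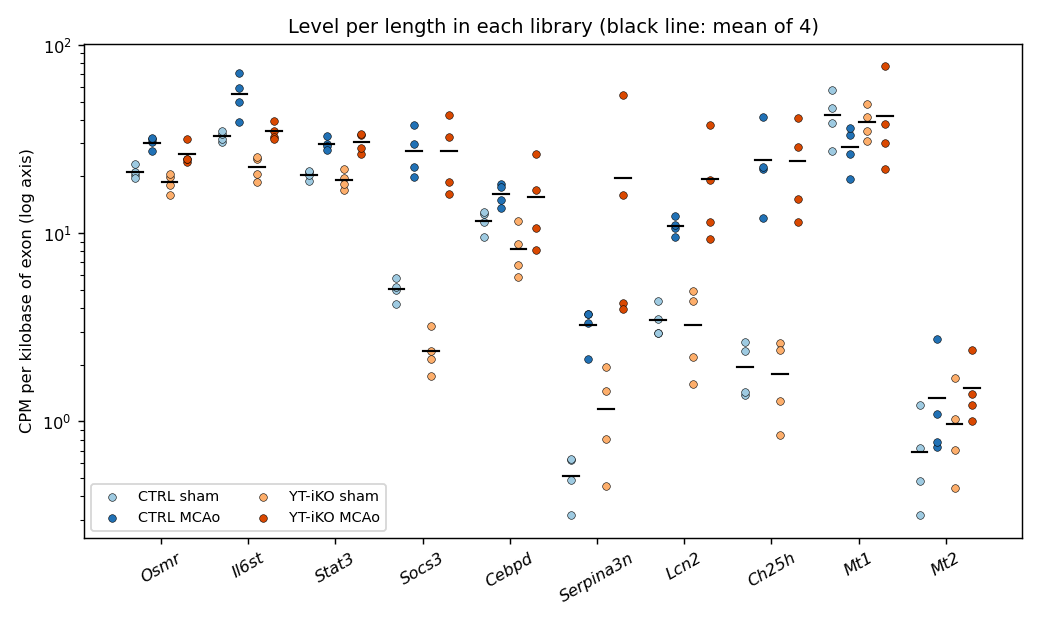
Level per kilobase of exon, in CPM per kilobase on a log axis, for each gene and group; points are libraries and black lines means of 4. Group means of Osmr and Stat3 stay between 18.6 and 30.3, while that of Ch25h goes from 1.95 to 24.4 and that of Socs3 from 5.04 to 27.3 in CTRL.

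The genotypes were then compared after sham surgery, which asks how YT-iKO and CTRL bECs differ without a stroke. In both genotype comparisons, loss of YAP and TAZ cannot be told apart from the Cre and eGFP transgene, which only YT-iKO mice carried. Levels of 8 of the 10 genes had a negative log2 fold change, with a median of −0.29 against 0.11 for all genes. The 15 endothelial markers had a median of −0.26 in the same comparison, and with factors from the abundant genes the median was −0.13 for the 10 genes and −0.13 for the markers, against 0.3 for all genes. The summed level of these markers was 18522 to 21476 CPM in YT-iKO sham and 22403 to 23357 CPM in CTRL sham, without overlap, and its part in the lower levels was not tested. The markers did not move alike, and 4 of the 15 were lower without overlap. Means in CTRL sham and YT-iKO sham were 2701 and 1627 CPM for Slco1a4, 1299 and 1307 CPM for Kdr, and 1009 and 1005 CPM for Tek. By edgeR none of the 10 was called, and 0.0965% of all genes were; 2 of the 10 and 670 of all genes had an unadjusted p under 0.05. DESeq2 called 0 of the 10 and 65 of all genes, and limma-voom with sample quality weights called 1, Socs3, and 143. Socs3 stood at 14.6 ± 1.82 CPM (SD, 4 libraries) in CTRL against 6.84 ± 1.8 in YT-iKO (log2 −1.27, SE 0.39; edgeR adjusted p = 0.990). It was lower in 4 of 4 YT-iKO libraries than in any CTRL library (exact permutation test on log2(CPM + 1), two-sided p = 0.0286, the smallest that 4 against 4 libraries allow; 0.191 adjusted over the 20 tests of both genotype comparisons). Il6st was 363 ± 22.9 CPM in CTRL and 248 ± 36.0 in YT-iKO, likewise without overlap (log2 −0.69, SE 0.31, edgeR adjusted p = 0.990; exact permutation p = 0.0286, adjusted 0.191). On levels scaled on the abundant genes, these 2 were the only members whose groups did not overlap downward, as 1.59% of all genes tested did.

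The call of Socs3 after sham depended on the model. Its adjusted p was 0.0129 by limma-voom and 0.000299 in an edgeR model of the 8 sham libraries alone, which called 120 of all genes, but 0.250 with factors from the abundant genes, 0.133 by DESeq2 and 0.148 with the replicate number as a block. Its fold change was −1.36 to −1.20 when each library was left out in turn. Il6st after sham was not called in any of these fits (adjusted p 0.191 to 0.996). With factors from the abundant genes, 0.37% of all genes and none of the 10 were called, but leaving out the CTRL MCAo library numbered 3 made Il6st pass (edgeR adjusted p = 0.0794). Cebpd was 43.7 ± 5.70 CPM in CTRL sham and 30.9 ± 9.47 in YT-iKO sham, a log2 fold change of −0.68 (SE 0.36), and overlapped in replicate 3 of YT-iKO (exact permutation p = 0.0857). Scaled on all genes, its groups were apart, with at most 36.5 CPM in YT-iKO sham and at least 38.4 CPM in CTRL sham. Serpina3n had the opposite sign (log2 0.98, SE 0.76, edgeR adjusted p = 0.990), with overlapping groups at the low counts given above. The other 6 genes, Lcn2, Mt1, Mt2, Osmr, Stat3 and Ch25h, had log2 fold changes of −0.31 to 0.38, all with overlap.

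After MCAo, the question is whether the injured endothelium differs between genotypes. None of the 10 genes was called by edgeR, and 0.0708% of all genes were; 3 of the 10 (Serpina3n, Il6st and Lcn2) and 464 of all genes had an unadjusted p under 0.05. The median log2 fold change of the 10 was 0.06, and that of all genes 0.03. Serpina3n was the only member higher in every YT-iKO MCAo library than in any CTRL MCAo library, as 1.48% of all genes were. Its level was 6.67 ± 1.53 CPM in CTRL MCAo and 40.5 ± 49.1 in YT-iKO MCAo (log2 2.75, SE 0.65; edgeR adjusted p = 0.299). The lowest YT-iKO value, 8.14 CPM in replicate 3, was close to the highest CTRL value, 7.71 CPM in replicate 2. Scaled on all genes, the groups overlapped. YT-iKO MCAo replicates 2 and 3 were then at 6.52 and 6.6 CPM, and CTRL MCAo replicates 1 to 4 at 9.87, 6.61, 3.53 and 7.55 CPM. The exact permutation test on log2(CPM + 1) gave p = 0.0286 (0.191 adjusted over 20 tests), and p = 0.286 when CPM were scaled on all genes. The study itself lists Serpina3n as different in this comparison, and the 10 genes were chosen with results of these data known. The p values and calls of Serpina3n in this comparison, here and below, therefore describe the choice and support nothing.

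The size of the Serpina3n difference depended on replicate 1 of YT-iKO MCAo. Without replicate 1 the log2 fold change was 1.35 (SE 0.51, edgeR adjusted p = 1.0). Without replicate 2, 3 or 4 it was 3.09, 3.12 and 2.77 and was called (edgeR adjusted p = 0.0421, 0.0441 and 0.0624). It was called by DESeq2 (adjusted p = 0.0875), as were 78 of all genes, and was 0.41 by limma-voom (adjusted p = 0.647). Lcn2 showed the same library pattern, with 28.5 ± 2.95 CPM in CTRL MCAo and 50.6 ± 33.5 in YT-iKO MCAo (log2 0.93, SE 0.42, edgeR adjusted p = 1.0), and 0.22 without replicate 1.

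Il6st was lower in YT-iKO also after MCAo, at 385 ± 38.3 CPM against 606 ± 150 in CTRL. Its log2 fold change was −0.68 (SE 0.31, edgeR adjusted p = 1.0), and only YT-iKO MCAo replicate 4 (438 CPM) reached above the lowest CTRL library, replicate 3 (433 CPM; exact permutation p = 0.0571). Of the alternative fits, 2 called it. With factors from the abundant genes the value was −0.65 (SE 0.15, adjusted p = 0.0706), where 0.582% of all genes were called, and limma-voom, which called 257 of all genes, gave −0.71 (adjusted p = 0.0517). The former call was lost when any of 8 libraries was left out, namely YT-iKO MCAo replicates 1, 2 and 3, CTRL MCAo replicates 1, 2 and 4 and CTRL sham replicates 1 and 2 (adjusted p 0.103 to 0.273). Socs3 had 78.9 ± 22.6 CPM in CTRL MCAo and 79.2 ± 35.8 in YT-iKO MCAo, a log2 fold change of 0.05 (SE 0.37). The fold changes of Mt1 (0.63, SE 0.36), Osmr (−0.18, SE 0.27), Mt2 (0.12, SE 0.65), Stat3 (0.06, SE 0.27), Cebpd (0.05, SE 0.35) and Ch25h (0.04, SE 0.48) were accompanied by overlapping groups.

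**Figure D4:**
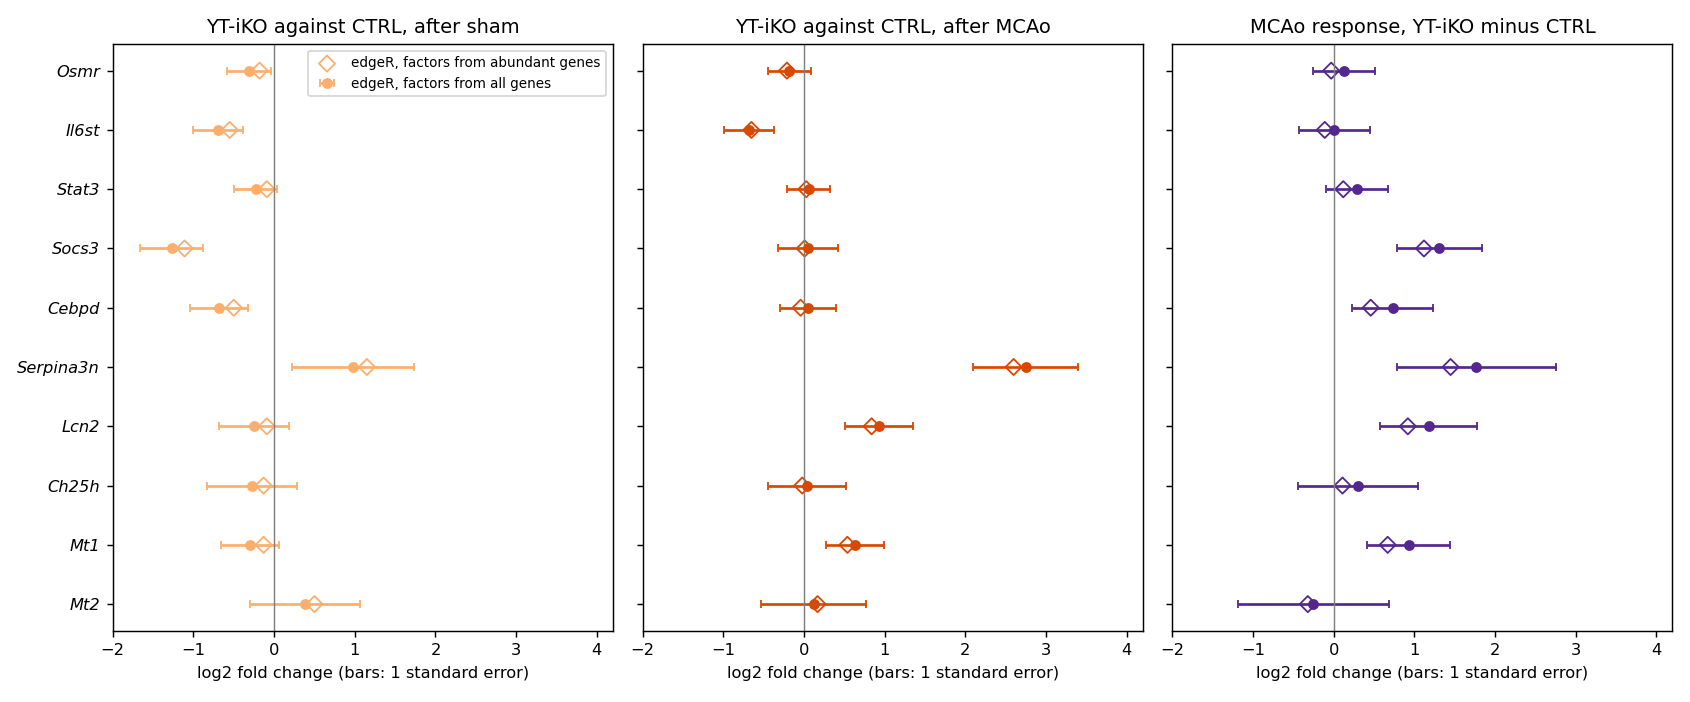
Log2 fold change of YT-iKO against CTRL after sham (left) and after MCAo (middle), and the difference in the MCAo response between genotypes (right); filled points with bars of 1 SE use factors from all genes tested, open diamonds factors from abundant genes. Socs3 (−1.27) and Il6st (−0.69) lie to the left after sham, Il6st (−0.68) does so after MCAo, and Serpina3n (2.75) lies far to the right after MCAo.

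The difference between the MCAo responses was tested as an interaction. By edgeR it was called for 0.0% of all genes and for 0 of the 10; 116 of all genes and 1 of the 10 (Socs3) had an unadjusted p under 0.05, and DESeq2 and limma-voom called 0 genes. By edgeR with factors from all genes, the interaction was positive in 9 of the 10 genes, all but Mt2. Osmr (−0.03) and Il6st (−0.11) turned negative with factors from the abundant genes. By limma-voom, Serpina3n, Osmr, Il6st, Ch25h and Cebpd were negative. The interaction is made from the comparisons of MCAo with sham, which were known when the genes were chosen. Its signs, unadjusted p values and median for the 10 genes therefore describe the choice and support nothing. The edgeR interaction had a median of 0.52 against −0.02 for all genes, or 0.29 against −0.16 with factors from the abundant genes. It was 1.77 (SE 0.99) for Serpina3n, 1.31 (SE 0.53) for Socs3 and 1.18 (SE 0.60) for Lcn2, each with an edgeR adjusted p of 1.0. Values for the other 7 genes ran from −0.25 (Mt2) to 0.93 (Mt1). For Socs3 the groups overlapped after MCAo and were apart after sham, whereas for Serpina3n and Lcn2 the spread was widest in YT-iKO MCAo. Their YT-iKO sham libraries also differed, by 4.26-fold for Serpina3n and 3.09-fold for Lcn2 between highest and lowest. The interaction of Serpina3n fell to 0.37 without YT-iKO MCAo replicate 1 and was −0.37 by limma-voom, and that of Lcn2 fell to 0.47.

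Libraries of a group that were high in some of these genes tended to be high in others. YT-iKO MCAo replicate 1 held the highest level of its group in 6 of the 10 genes (Serpina3n, Lcn2, Mt1, Mt2, Socs3 and Cebpd) and replicate 4 in the other 4 (Osmr, Il6st, Stat3 and Ch25h). In CTRL MCAo, replicate 1 was highest in 6 genes and replicate 3 lowest in 9. Deviations from the group means correlated with a median Pearson r of 0.55 over the 45 pairs of genes (−0.26 to 0.95; 16 libraries). Serpina3n and Lcn2 had r = 0.89, and Serpina3n and Cebpd r = 0.95. These r values rest largely on YT-iKO MCAo, the group with the widest spread. The SD of log2(CPM + 1) there was 1.72 for Serpina3n, against 0.221 to 0.608 in the other groups. For Cebpd it was 0.739, against 0.187 to 0.418. Osmr had the lowest median, 0.11. These values describe the same 16 libraries, which also share the even background and the scaling.

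Outside the 10 genes, those most like their mean profile over the 16 libraries among 9123 genes compared were Tmem252 (r = 0.962), Ctsb (0.961), Cdr2l (0.961), Ptgfrn (0.949) and Spry1 (0.948). Ptgfrn, for example, went from 88.6 ± 4.60 CPM after sham to 234 ± 40.8 CPM after MCAo in CTRL, and from 86.0 ± 11.7 to 246 ± 70.7 CPM in the other genotype. Deviations of Serpina3n from its group means were followed most closely by Tacc1 (r = 0.966), Stt3b (0.930), Ucp2 (0.929), Nek7 (0.914) and Hipk1 (0.909). The spread of Tacc1 was also widest in YT-iKO MCAo (507 ± 145 CPM, against SDs of 17.3 to 27.1 in the other groups).

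Reactive astrocytes express Serpina3n and Lcn2, and neutrophils contain lipocalin-2, so markers of those cells were measured in the same libraries. The summed level of 11 astrocyte markers was 135 to 161 CPM after sham and 111 to 167 CPM after MCAo in CTRL, and 113 to 165 and 102 to 148 CPM in YT-iKO, with no marker at 0 in all libraries of a group. YT-iKO MCAo replicates 1 and 4, the highest in Serpina3n, had 134 and 102 CPM, the latter the lowest of all 16 libraries. Gfap, the marker of reactive astrocytes, was at 4.8 ± 0.922 CPM after sham and 11.6 ± 3.30 after MCAo in CTRL, and at 6.68 ± 3.01 and 8.36 ± 1.44 CPM in YT-iKO, and its CTRL sham (3.70 to 5.83 CPM) and CTRL MCAo (6.81 to 14.4 CPM) libraries did not overlap. The sum of 11 neutrophil markers was 9.39 and 1.37 CPM in these replicates, against 36.7 and 28.4 CPM in replicates 2 and 3. The even background, at 0.15, 0.557, 0.445 and 0.0303 CPM per kilobase in replicates 1 to 4, had the same order as the neutrophil sum. The sum of 15 endothelial markers was 23774 to 28264 CPM in CTRL MCAo and 19559 to 23858 CPM in YT-iKO MCAo, with 23858 and 23004 CPM in replicates 1 and 4. The sum of 11 pericyte and smooth muscle markers was 1193, 768, 812 and 920 CPM in YT-iKO MCAo replicates 1 to 4, so that it was highest in the same replicates 1 and 4 as Serpina3n. The sum of 7 fibroblast markers was 20.3 to 26.3 CPM after sham and 30.6 to 49.9 CPM after MCAo in CTRL, without overlap. In YT-iKO it was 21.2 to 60.5 and 23.4 to 62.6 CPM, with 36.4 and 23.4 CPM in MCAo replicates 1 and 4. The part of these cells in the levels of Serpina3n and Lcn2 was not tested.

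**Figure D5:**
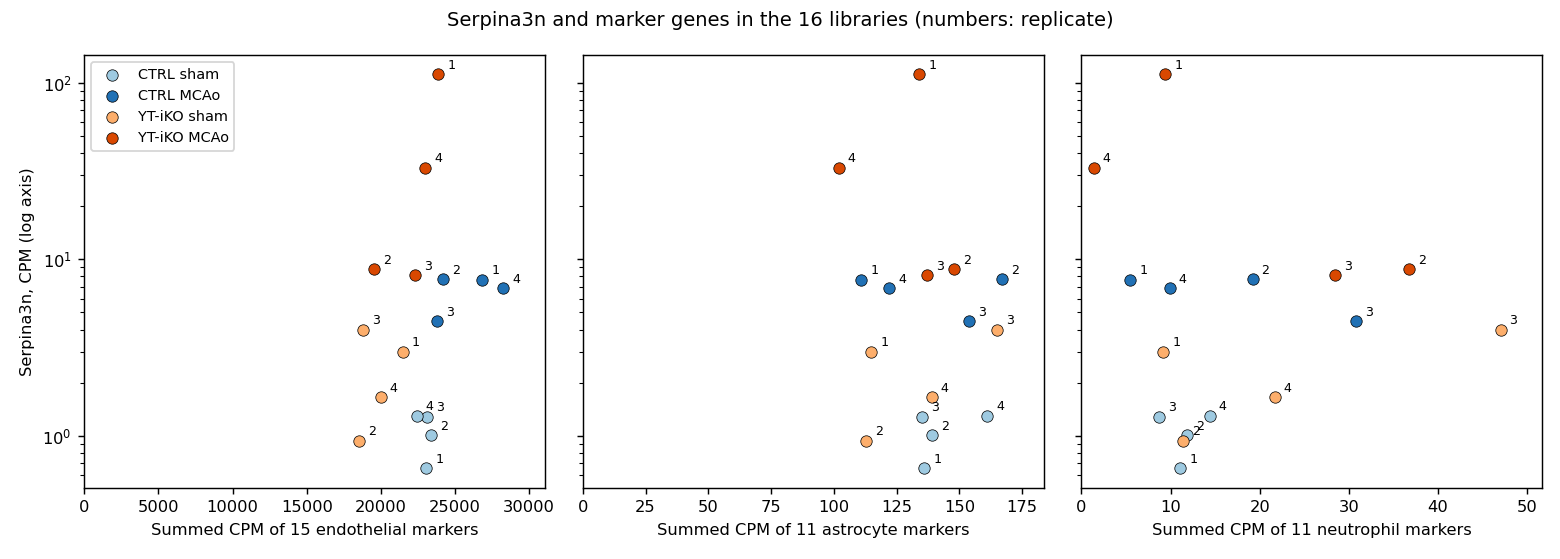
Level of Serpina3n (CPM, log axis) against the summed level of 15 endothelial, 11 astrocyte and 11 neutrophil marker genes (CPM) in the 16 libraries; numbers are replicates. YT-iKO MCAo replicates 1 and 4 (112 and 33.0 CPM of Serpina3n) lie within or below the range of the other libraries on each marker axis.

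The surrounding pathway was described with lists of ligands, receptors, kinases and STATs, inhibitors, STAT3 targets, acute-phase proteins, metallothioneins and zinc transporters, the Serpina3 cluster, C/EBP factors, oxysterol genes and lipocalin-2 uptake. The lists name 117 genes. The table of raw counts held 9 of the 10 ligands and 10 of the 11 oxysterol genes, and 112 genes passed the filter. The lists were chosen with earlier results of these data known, so the shares called describe the choice and support nothing. After MCAo in CTRL, edgeR called 2 of the 112 higher and 0 lower, a share of 1.79% against 0.216% of all genes. In YT-iKO it called 5 higher and 0 lower, a share of 4.46% against 0.318%. With factors from the abundant genes, 15 were higher and 1 lower in CTRL, and 19 higher and 3 lower in YT-iKO, where 1.78% and 1.72% of all genes were called. The median log2 fold change was 0.35 for the 112 genes and 0.07 for all genes in CTRL, and 0.18 and −0.02 in YT-iKO. Leaving out a library moved the count to between 2 and 8 in CTRL, the highest without YT-iKO MCAo replicate 4. In YT-iKO it fell to 2 without MCAo replicate 1 or sham replicate 1, 2 or 4, and was 11 without MCAo replicate 2. For the difference in response edgeR called 0 of the 112, and 0 had an unadjusted p under 0.05.

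Ligands of the family were scarce in the sorted cells. Il6 had 2 to 43 counts per library, Lif 3 to 58 and Osm 1 to 33, and edgeR called 0 of the 9 ligands tested in each of the 5 comparisons (Il6 had an unadjusted p of 0.0492 for MCAo in CTRL). Il11, named after its values were seen, was at 0.643 to 1.45 CPM in CTRL MCAo and 2.79 to 4.19 CPM in YT-iKO MCAo, without overlap (log2 1.81, SE 0.50, edgeR unadjusted p = 0.00141, adjusted 0.684). For MCAo in YT-iKO its log2 fold change was 1.78 (SE 0.49, edgeR unadjusted p = 0.00155, adjusted 0.278), with overlap. Among the 6 receptors other than the members, the interleukin-6 receptor Il6ra went from 90.2 ± 5.4 CPM after sham to 134 ± 11.2 CPM after MCAo in CTRL, and from 73.3 ± 7.33 to 111 ± 9.66 CPM in YT-iKO. MCAo and sham libraries of Il6ra did not overlap, and it was called with factors from the abundant genes (log2 0.57, edgeR adjusted p = 0.00197 in CTRL; 0.60, adjusted p = 0.00125 in YT-iKO) but not with those from all genes (adjusted p = 1.0 and 0.924). The receptor of leukemia inhibitory factor, Lifr, was at 306 ± 28.9 CPM after sham and 240 ± 25.5 after MCAo in CTRL, without overlap. It was not called (log2 −0.42, SE 0.26, edgeR adjusted p = 1.0, and 0.182 with factors from the abundant genes). Jak1 was at 139 ± 7.34 CPM after sham and 173 ± 16.3 after MCAo in CTRL, and 139 ± 11.9 and 174 ± 17.8 in YT-iKO. Jak2 had log2 fold changes of 0.05 (SE 0.26) with MCAo in CTRL and 0.14 (SE 0.26) in YT-iKO, with overlapping groups. Tyk2, another kinase of these receptors, had 56.8 ± 0.912 CPM in CTRL sham and 45.8 ± 1.15 in CTRL MCAo, and was called lower only with factors from the abundant genes (log2 −0.31, edgeR adjusted p = 0.0641 in CTRL; −0.40, adjusted p = 0.0130 in YT-iKO). The kinase Jak3 was called higher with these factors in CTRL (log2 0.56, edgeR adjusted p = 0.035) and in YT-iKO (0.61, adjusted p = 0.0207). So was the inhibitor Ptpn1 (0.44, adjusted p = 0.0212, and 0.48, adjusted p = 0.00935). Neither was called by edgeR with factors from all genes. Socs1, the relative of Socs3, was at 1.42 ± 0.298 CPM in CTRL sham and 2.38 ± 0.623 in CTRL MCAo, with overlap.

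Of 20 STAT3 targets, 1 was called higher after MCAo in CTRL and 2 in YT-iKO. Lrg1, which encodes a secreted glycoprotein of the acute phase, rose from 4.19 ± 2.24 to 101 ± 37.6 CPM in CTRL (log2 4.59, SE 0.59, edgeR adjusted p = 0.000885). In YT-iKO it rose from 5.54 ± 2.68 to 140 ± 86.3 CPM (log2 4.86, SE 0.60, edgeR adjusted p = 0.0003). Il4ra, the interleukin-4 receptor, rose in YT-iKO from 44.3 ± 2.96 to 151 ± 82.2 CPM (log2 1.98, SE 0.41, edgeR adjusted p = 0.0396). In CTRL it went from 42.8 ± 2.57 to 98.2 ± 22.9 CPM (log2 1.17, SE 0.40, edgeR adjusted p = 0.783), without overlap, and was called there with factors from the abundant genes (log2 1.2, SE 0.28, edgeR adjusted p = 0.048). The difference between these responses was not called. With factors from the abundant genes, which called 1.78% of all genes in CTRL and 1.72% in YT-iKO, 8 of the 20 were called higher in each genotype. Bcl3, Junb and Hif1a, chosen here after their values were seen, were among them (log2 1.00, 1.62 and 0.90 in CTRL). Ccnd1, which encodes cyclin D1 and was chosen likewise, was called lower in YT-iKO (log2 −0.71, SE 0.19, edgeR adjusted p = 0.0942).

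Of 20 acute-phase genes tested, 1 was called higher after MCAo in CTRL and 3 in YT-iKO. Cd14, the coreceptor for bacterial lipopolysaccharide, rose from 1.87 ± 0.327 to 20.9 ± 9.22 CPM in CTRL (log2 3.50, SE 0.52, edgeR adjusted p = 0.0022). Its YT-iKO levels were 2.34 ± 0.838 and 19.0 ± 14.5 CPM (log2 3.23, SE 0.51, edgeR adjusted p = 0.00413). Serping1, which encodes the C1 inhibitor, rose in YT-iKO from 2.22 ± 0.996 to 6.21 ± 1.95 CPM (log2 1.58, SE 0.32, edgeR adjusted p = 0.0339). In CTRL it was at 1.86 ± 0.235 CPM after sham and 5.36 ± 1.67 after MCAo, without overlap (log2 1.41, SE 0.32, edgeR adjusted p = 0.103; 0.0495 with factors from the abundant genes). Fth1, the ferritin heavy chain, rose in YT-iKO from 200 ± 55.3 to 536 ± 161 CPM (log2 1.58, SE 0.36, edgeR adjusted p = 0.0871). Its CTRL levels were 230 ± 21.2 and 679 ± 169 CPM, again without overlap (log2 1.53, SE 0.36, edgeR adjusted p = 0.125; 0.00197 with factors from the abundant genes). Cp, which encodes the copper-carrying ceruloplasmin, was the only gene of the 112 called between genotypes by edgeR with all 4 groups and factors from all genes. It was 292 ± 21.7 CPM in CTRL sham and 89.8 ± 3.04 in YT-iKO sham (log2 −1.84, SE 0.30, edgeR adjusted p = 0.00873), and 374 ± 56.1 and 161 ± 29.8 CPM after MCAo (log2 −1.19, SE 0.29, adjusted p = 0.379; 4.8e-05 with factors from the abundant genes). The call after sham was lost without YT-iKO sham replicate 4.

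Listed neighbors of Serpina3n, Cebpd, the metallothioneins and Ch25h were not called by edgeR with factors from all genes. None of the 10 other Serpina3 genes of the cluster was called by edgeR in any comparison. Serpina3g, for example, was at 3.45 ± 2.21 CPM after sham and 3.93 ± 0.599 CPM after MCAo in CTRL, and at 3.50 ± 1.90 and 6.4 ± 4.00 CPM in YT-iKO (edgeR unadjusted p = 0.0286 for the latter pair). Genes of this cluster are close copies of each other, and reads that match several were treated in a way not given in the sources used here. Cebpb, the relative of Cebpd, was at 2.01 ± 0.619 CPM in CTRL sham and 3.63 ± 1.23 in CTRL MCAo. Mt3 had 1 to 26 counts per library, and the zinc sensor Mtf1 was at 36.4 ± 1.05 CPM in CTRL sham and 42.5 ± 1.65 in CTRL MCAo. Gpr183, the receptor of oxysterols made from the product of Ch25h, was at 4.3 ± 0.336 and 4.93 ± 0.793 CPM in these groups, and Cyp7b1, the next enzyme, at 1.01 ± 0.283 and 1.46 ± 0.615 CPM. The cholesterol exporter Abca1, chosen after its values were seen, was at 158 ± 37.3 CPM in CTRL sham and 338 ± 78.1 in CTRL MCAo, and at 170 ± 17.2 and 418 ± 121 CPM in YT-iKO. It was called with factors from the abundant genes (edgeR adjusted p = 0.0134 in CTRL and 0.00324 in YT-iKO) and not with those from all genes (0.627 and 0.116).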

How the data were processed

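RNA of sorted bECs was amplified with a SMART-Seq Ultra Low Input kit and sequenced as paired ends. Per the labels and the study's methods, the authors aligned reads to GRCm38 with STAR 2.7.8a and deposited raw counts per gene (GENCODE M12 annotation). The counting program, its use of strand and the gene filter were not given in the sources used here, and each of the 37003 genes in the table had at least 6 counts in 3 or more libraries. The counts were fitted with edgeR 4.0.16 (R 4.3.3): filterByExpr (min.count 10, min.total.count 15), TMM factors from all 31085 genes kept, 4 group means, the quasi-likelihood test, and Benjamini-Hochberg adjustment over all genes with a threshold of 0.1. Alternatives were DESeq2 1.42.0, limma-voom (limma 3.58.1) with sample quality weights, other factors and filters, the compared groups alone, a replicate block, and each library left out. Levels in CPM use TMM factors from genes that average 10 CPM or more and were compared between genotypes by exact permutation of log2(CPM + 1) over 70 assignments, adjusted over 20 tests. The fits were tested on simulated counts that did not include the even background, which differed between libraries. That test therefore does not cover its effect on the fits. Replicates are pools of mice, so p-values measure the spread between pools.

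The members, the gene lists and the printed scale were chosen with earlier results of these data known. Genes named include the members, some listed pathway genes called with groups that did not overlap, listed neighbors of the members, the 5 nearest profiles and the targeted genes. Some listed genes that were not called, such as Il11, Lifr and Jak2, are named as well. Not every listed gene is reported here, and neither is every listed gene called without overlap. Gene positions are from GENCODE M21 on GRCm38, in which 36861 genes were found. Total counts per library were 11418262 to 23074547 (median 16441012).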

Additional observations from a re-analysis of the deposited data

Results flagged for a closer look

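Among 40 sets of 4 libraries (10 genes in 4 groups), 1 held a library far from the others. Osmr in YT-iKO MCAo replicate 4 was at 381 CPM, while the other 3 libraries of that group were at 288 to 301 CPM. Chance alone gives such a gap in about 1 of 20 sets.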

How the results depend on the processing

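Leaving out libraries in turn kept the direction and the side of the threshold, or stayed within the replicate spread, in 1148 of 1264 values, and the other settings did so in 454 of 533. Where a value changed, the cause was not tested. After sham, limma-voom and the fit of the compared groups alone each called 1 of the 10 genes and 2 of the pathway genes (143 and 120 of all genes). Between genotypes after MCAo, 1 of the 10 was called by DESeq2 (Serpina3n) and 1 by limma-voom and by factors from abundant genes (Il6st), and 1 pathway gene by these, by the CPM filter and by the replicate block (of all genes 78 by DESeq2, 257 by limma-voom, 181 with abundant-gene factors, 31 with the CPM filter and 34 with the block). For MCAo in CTRL, members called were 4 (DESeq2), 5 (limma-voom), 6 (abundant genes) and 4 (groups compared), and pathway genes 10, 40, 16 and 15 (of all genes these called 203, 7538, 554 and 509), with 4 under RLE factors, 4 without a filter, 6 with the CPM filter and 5 with the block (98, 94, 121 and 119 of all genes). For MCAo in YT-iKO, members were 4 (DESeq2), 5 (limma-voom, of which Mt1 was lower), 7 (abundant genes) and 2 (groups compared), and pathway genes 11 (DESeq2), 25 (limma-voom), 22 (abundant genes) and 1 (groups compared), and of all genes 239, 5626, 534 and 17.

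Some log2 fold changes changed sign, among them 1.77 for the Serpina3n difference in response. Between genotypes after MCAo, limma-voom gave −0.27 for Mt1, −0.51 for Socs3, −0.16 for Stat3, −0.52 for Ch25h and −0.75 for Cebpd. Without a filter these were −0.01 for Socs3, Stat3 and Cebpd and −0.03 for Ch25h. Factors from abundant genes gave −0.02 for Ch25h and −0.04 for Cebpd, and the groups compared alone −0.02 and −0.00249. For the difference in response, limma-voom gave −0.37 for Serpina3n, −0.13 for Osmr, −0.11 for Il6st, −0.16 for Ch25h and −0.00344 for Cebpd, and it gave −0.86 for Mt1 with MCAo in YT-iKO. Abundant genes gave −0.03 for Osmr and −0.11 for Il6st, and Il6st was −0.02 by DESeq2, −0.03 with RLE factors, −0.06 without a filter and −0.02 with the CPM filter. On all-gene factors, the Serpina3n level after MCAo differed by 1.68 (exact permutation p = 0.286) and the Cebpd level after sham by −0.68 (p = 0.0286).

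Replicate numbers were not read as pairs: 15 of 24 same-number pairs of libraries correlated above 0.1 (median r 0.199, against −0.115 for pairs of other numbers), and 7 of 16 libraries were closest to their own number. The replicate block gave −0.02 for Socs3, −0.01 for Ch25h and −0.06 for Cebpd between genotypes after MCAo.

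Over the 16 libraries left out in turn, members called ranged from 0 to 1 after MCAo between genotypes and from 2 to 4 for MCAo in CTRL, and with factors from abundant genes from 0 to 1 in either genotype comparison. Pathway genes called ranged from 0 to 1 in either genotype comparison, from 2 to 8 for MCAo in CTRL and from 2 to 11 for MCAo in YT-iKO. Fold changes that changed sign were, after sham, Mt2 (−0.19 to 0.80) and, between genotypes after MCAo, Mt1 (−0.03 to 0.90), Mt2 (−0.34 to 0.91), Socs3 (−0.40 to 0.29), Stat3 (−0.18 to 0.20), Ch25h (−0.55 to 0.49) and Cebpd (−0.50 to 0.30). For the difference in response they were Mt2 (−0.71 to 0.53), Osmr (−0.19 to 0.25), Il6st (−0.26 to 0.20) and Ch25h (−0.29 to 0.76), and for MCAo in YT-iKO Mt1 (−0.38 to 0.55). Fits with factors from abundant genes and a library left out, and levels on all-gene factors, were chosen after seeing the data. Depth limits Mt2 (3 to 32 counts) and Serpina3n after sham (11 to 69 counts).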
